A study of Mus musculus with 12 samples.

Results

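The genes described here belong to the plasminogen and matrix protease system, the secreted and cell-surface enzymes that cut proteins of the extracellular matrix, with their receptor and inhibitor. They were the rows of the count table whose gene name was Plat, Plau, Plaur, Timp1, Mmp9, Adamts1 or Adamts4. Of these 7 names 6 were measured, among 12975 genes in all, and Plau was not analysed here. RNA bound to ribosomes was precipitated from the muscularis externa, the muscle coat of the gut with the myenteric ganglia, in 6 mice that carried a tamoxifen-inducible Cre recombinase (PLP-CreERT2) together with Rpl22HA, the tagged allele of the line B6J.129(Cg)-Rpl22tm1.1Psam/SjJ. In these mice tamoxifen activates the Cre in cells where its promoter is active, which are meant to be enteric glial cells (EGCs), and Cre switches the ribosomal protein Rpl22 to a form with an HA tag. All mice, controls included, were given tamoxifen in Miglyol 812 by 2 intraperitoneal injections (100 µl of 15 mg/ml) at 10 to 12 weeks of age and were killed 3 to 4 weeks after the first one. Groups were naïve mice (T0, animals 1, 2 and 4) and mice taken 3 h after intestinal manipulation, in which the small bowel is handled during surgery and muscularis inflammation follows (T3, animals 1, 3 and 4). The homogenate of each animal was split between an anti-HA antibody (HA) and a mouse IgG1 control antibody (IgG), which gave 4 groups of 3 libraries. T0 and T3 animals with the same number are different mice.

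Plasminogen is a circulating pro-enzyme that the activators Plat and Plau cut into plasmin, which dissolves fibrin and matrix proteins and activates matrix metalloproteases. Plaur, the cell-surface receptor of Plau, holds this activity at the membrane. Metalloproteases of the MMP and ADAMTS families cut collagens, basement membrane and proteoglycans, and TIMPs bind and block them. In the nervous system these enzymes are known for remodelling the matrix around neurons and glia after injury.

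Values are counts of unique molecular identifiers (UMIs) taken at the 3′ end of transcripts, scaled to a total of 1000000 per library (CPM), so that levels of different genes can be compared without division by length. HA libraries held 1221788 to 2870591 UMIs and IgG libraries 88136 to 1289833, and the IgG T3 libraries were the shallowest group. RNA of the tagged gene Rpl22 was at 83.3 ± 9.02 CPM in HA libraries of naïve mice and 65.2 ± 5.89 CPM in those of injured mice (mean ± SD, n = 3, as for all group values here). Its IgG levels were 23.8 ± 7.60 CPM at T0 and 24.4 ± 12.0 CPM at T3, the latter from 3, 1 and 7 UMIs. All 9 glial markers that could be tested of a list of 10 were called higher in HA at T0. Over all 9823 genes tested there, 30.3% were called and 16% were called higher. Markers of interstitial cells of Cajal, pacemaker cells of the gut muscle, were likewise called higher for 2 of 3 genes. Higher levels in HA were thus not confined to genes listed for glia. The summed CPM of the 3 Cajal cell markers was 2948 ± 386 in HA T0 and 1371 ± 184 in HA T3. The part of this shift in genes that fell in HA was not tested. The summed CPM of the glial list was 3670 to 4529 in HA T0, 4459 to 5147 in HA T3 and 178 to 242 in IgG T0, but 987, 902 and 221 in IgG T3 animals 1, 3 and 4. Animals 1 and 3 thus lay above the IgG T0 range and animal 4 lay within it. In pull-downs from whole tissue, fewer cells of a type and less RNA per cell cannot be told apart.

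The first comparison asked how the system changed in the HA pull-down 3 h after manipulation. Plaur, Timp1, Adamts1 and Adamts4 rose between 13.1-fold and 34.7-fold, while Plat, the most abundant of the 6 in naïve mice, and Mmp9 did not pass the test. Thus 4 of 6 genes were called higher, where 33.8% of the 9441 genes tested were called and 18.7% were called higher (edgeR quasi-likelihood test, Benjamini-Hochberg adjusted p under 0.05). Plaur and Adamts4 passed the filter for low counts only through their HA T3 libraries. Without that filter both were called as well (edgeR adjusted p 7.27e-13 and 1.95e-07). The median log2 fold change of the 6 genes was 3.99, beside -0.02 over all genes tested. Because Plaur and Adamts4 entered through the group where they were high, nothing is read from this median or from the share of 4 of 6. Of the calls over all genes 55.4% were higher, and 31.1% with total counts as scaling, which moved the median of all genes to -0.29 and left the 4 calls in place. The HA T3 and HA T0 values of these 4 genes did not overlap, as for 50.8% of all genes tested.

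**Figure D1:**
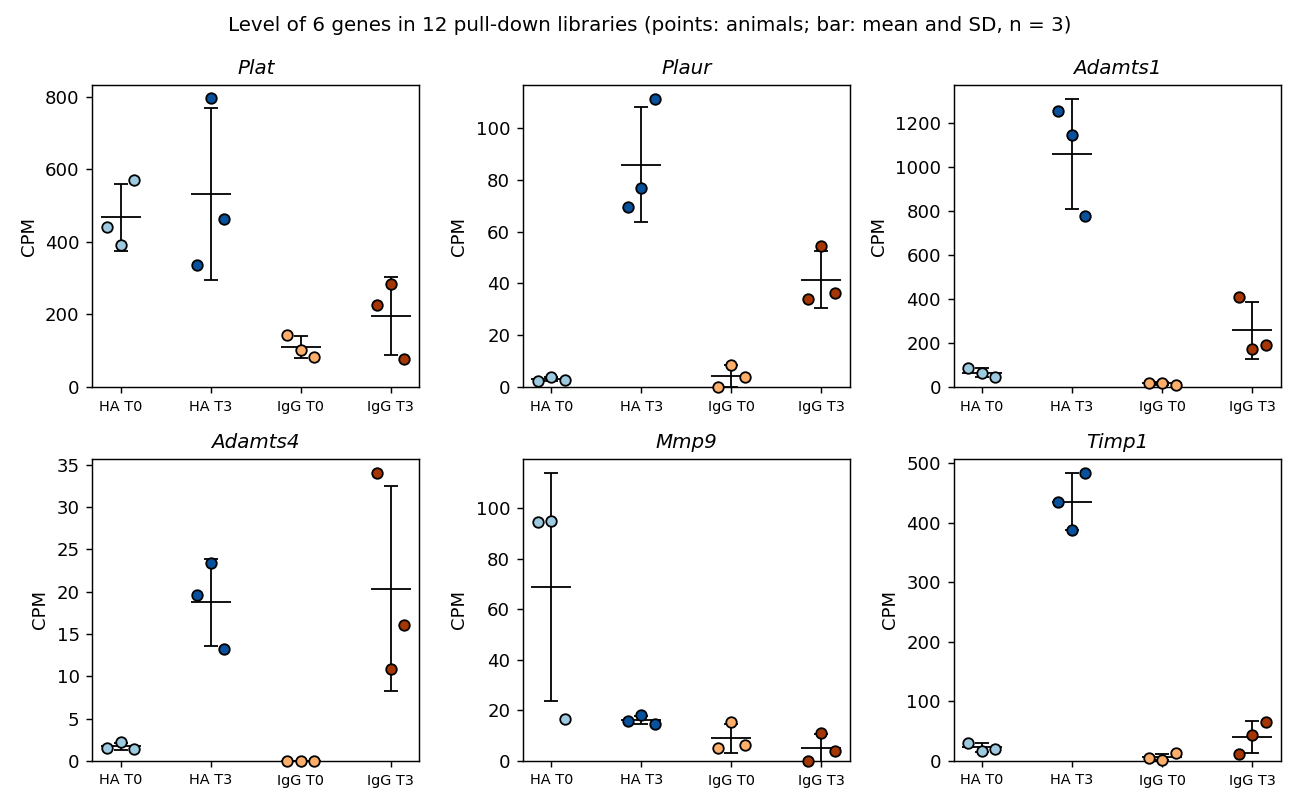
CPM (vertical axis, linear, starting at 0 with its own scale in each panel) of 6 protease system genes in HA and IgG libraries at T0 and T3; points are animals in the order of their numbers and bars give the mean and SD of 3. All HA T3 points of Plaur, Adamts1, Adamts4 and Timp1 lie above all HA T0 points, whereas Plat overlaps and Mmp9 has 2 high HA T0 animals and 1 low one.

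Plaur (chr7:24462484-24475968 on the plus strand, mm10) encodes the urokinase receptor. It was nearly silent in naïve HA libraries, with 2.30, 3.91 and 2.79 CPM (6, 7 and 8 UMIs) in animals 1, 2 and 4. At T3 it reached 69.6, 76.9 and 111 CPM in animals 1, 3 and 4, from 85 to 142 UMIs. All injured animals lay far above all naïve ones, a log2 fold change of 5.12 (SE 0.31, 95% interval 4.47 to 5.76, edgeR adjusted p 9.2e-11). Plaur had the largest fold of the 6 genes, and its call held in all 13 alternatives.

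Timp1 (chrX:20870166-20874735, plus strand) encodes a secreted inhibitor of metalloproteases. It was at 30.7, 16.8 and 20.2 CPM in HA T0 and at 435, 387 and 483 CPM in HA T3. The spread between injured animals was small against the difference, which was 22.8-fold (log2 fold change 4.51, SE 0.24, edgeR adjusted p 1.04e-11). Timp1 lies within Syn1, a neuronal gene on the opposite strand, and the sources used here do not give whether counting used the strand. Syn1 itself was at 18.4, 15.6 and 27.2 CPM in HA T0 and at 17.2, 14.7 and 28.8 CPM in HA T3, so that its range in injured mice nearly matched that in naïve mice.

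Adamts1 (chr16:85793827-85803113, minus strand) encodes a secreted protease that cuts proteoglycans such as versican. Naïve HA libraries held 85.2, 64.8 and 46.0 CPM of it, and injured ones 1251, 1145 and 777 CPM. In each injured animal Adamts1 exceeded the level of Plat, which was not so in any naïve animal. The log2 fold change was 4.27 (SE 0.26, edgeR adjusted p 5.57e-09). Its relative Adamts4 (chr1:171250421-171260637, plus strand), which cuts aggrecan and brevican, was rare, with 4 UMIs in each HA T0 library (1.54, 2.23 and 1.39 CPM). It was at 19.6, 23.4 and 13.2 CPM in HA T3, from 24, 35 and 17 UMIs. The rise was 13.1-fold (log2 fold change 3.71, SE 0.42, edgeR adjusted p 9.45e-07). Both genes rose in 3 of 3 animals relative to every naïve animal, and Adamts1 was the more abundant in all HA libraries.

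Plat (chr8:22757727-22782844, plus strand) encodes tissue plasminogen activator. Its HA T0 values of 440, 391 and 570 CPM were the highest of the 6 genes in every naïve HA library. In HA T3 it was at 336, 796 and 464 CPM, below every naïve animal in animal 1 and above every one in animal 3. The log2 fold change was 0.46 (SE 0.28, 95% interval -0.15 to 1.08, edgeR adjusted p 0.23), an interval that holds both a small fall and a rise. Without HA T3 animal 1 the change was 0.72 and passed the threshold (adjusted p 0.0206).

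Mmp9 (chr2:164940780-164955850, plus strand) encodes gelatinase B, which cuts gelatin and collagen of basement membranes and is stored by neutrophils. In naïve HA libraries it was at 94.8 and 95 CPM in animals 1 and 2 but at 16.7 CPM in animal 4. In HA T3 it was at 15.6, 18.1 and 14.8 CPM, and thus the injured animals were alike and close to naïve animal 4. The log2 fold change was -1.83 (SE 0.83, 95% interval -3.98 to 0.33, edgeR adjusted p 0.164). Without HA T0 animal 4 it was -2.34 with an adjusted p of 1.07e-07, and in a fit of all 12 libraries it was -1.82 with an adjusted p of 0.0261, so that 5 of 6 genes were called in each.

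Leukocyte markers were set beside Mmp9. In HA T0 animals 1, 2 and 4 the summed CPM of 11 macrophage markers was 655, 772 and 439 and that of the 4 measured genes of a list of 12 neutrophil and monocyte markers was 10.4, 16.2 and 10.1. In HA T3 animals 1, 3 and 4 these sums were 240, 397 and 274 for macrophages and 127, 42.8 and 32.7 for neutrophils and monocytes. Of these 4 genes S100a9, an abundant neutrophil gene, was at 1.15, 0.559 and 0.348 CPM in HA T0 and at 98.2, 16.7 and 18.7 CPM in HA T3. S100a9 was thus higher in every injured HA library and low in all 3 naïve ones, both where Mmp9 was high and where it was low. In IgG T0 it was at 0 CPM in every library. In IgG T3 it was at 125, 10.9 and 56.3 CPM, from 11, 1 and 14 UMIs, so its presence at T3 was not particular to HA. The other 3 genes (S100a8, Ccr2 and Hp) were not alike, with S100a8 at 0 to 0.384 CPM in naïve and 0.669 to 18 CPM in injured mice, Hp overlapping between them, and Ccr2 at 2.3, 5.03 and 1.05 CPM in naïve and at 0, 0.669 and 3.89 CPM in injured mice. The macrophage sum was lower in naïve animal 4 than in naïve animals 1 and 2 and lower still in the injured animals. The sum of 8 epithelial markers was 230, 374 and 87.8 CPM in naïve and 39.3, 88.9 and 67 CPM in injured HA libraries, and so it was also high in naïve animals 1 and 2, as Mmp9 was. The part of these cell types in the Mmp9 values was not tested.

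The 250 bases before the transcription start of the genes that rose are shown because these genes moved together, and 3 of the 7 could be matched to a promoter (RefSeq, GRCm38.p6, 5′ to 3′ on the gene's strand). Capitals mark matches to 6 motifs searched on both strands, namely AP-1 (TGANTCA), CRE (TGACGTCA), STAT (TTCNNNGAA), NF-kB, the GC box (GGGCGG) and the TATA box (TATAAA). The windows are chr7:24462233-24462482 for Plaur, chr16:85803114-85803363 for Adamts1 and chrX:20869916-20870165 for Timp1.
Plaur promoter: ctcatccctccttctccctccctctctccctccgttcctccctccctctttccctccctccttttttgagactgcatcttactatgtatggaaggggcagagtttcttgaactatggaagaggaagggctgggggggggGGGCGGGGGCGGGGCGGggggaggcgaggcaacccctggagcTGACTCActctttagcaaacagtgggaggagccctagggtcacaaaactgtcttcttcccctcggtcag
Adamts1 promoter: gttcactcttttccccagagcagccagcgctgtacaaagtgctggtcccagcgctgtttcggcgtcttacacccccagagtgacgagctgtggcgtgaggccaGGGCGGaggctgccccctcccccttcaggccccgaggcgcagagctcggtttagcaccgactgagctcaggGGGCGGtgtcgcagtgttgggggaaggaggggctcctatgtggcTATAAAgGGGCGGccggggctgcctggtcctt
Timp1 promoter: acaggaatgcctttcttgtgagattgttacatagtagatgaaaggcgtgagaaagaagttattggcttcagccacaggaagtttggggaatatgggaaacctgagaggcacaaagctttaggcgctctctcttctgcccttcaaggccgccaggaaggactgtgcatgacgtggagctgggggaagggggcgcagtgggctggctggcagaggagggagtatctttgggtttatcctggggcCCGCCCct
Plaur held an AP-1 match at -69, a motif found in 6.75% of 32851 promoter windows of this length, and overlapping GC boxes at -111, -105 and -100. Adamts1 held GC boxes at -147, -76 and -25 and a TATA box at -32, which 12.4% of promoters hold. Timp1 held a GC box at -8 on the minus strand, a motif of 32.7% of promoters. The 3 promoters held no match to the CRE, STAT or NF-kB letters, which 1.55%, 7.02% and 7.25% of all promoter windows contained. A match or its absence describes these letters in this window only.

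The background of the same change was measured in IgG. Adamts1 and Plaur were higher in IgG T3 than in IgG T0 as well, so 2 of the 3 genes that passed the count filter were called, where 5.46% of 5219 genes were called and 4.43% were called higher. Adamts1 and Plaur passed that filter only through their IgG T3 libraries, the group where they were high, so nothing is read from the share of 2 of 3. Without the filter Adamts1 and Plaur were called as well (edgeR adjusted p 3.24e-15 and 0.0051). Adamts1 was at 20.6, 18.9 and 10.9 CPM in IgG T0 and at 408, 174 and 189 CPM in IgG T3 (log2 fold change 3.94, SE 0.45, edgeR adjusted p 7.2e-05). Animal 1 was the highest, and no IgG T3 animal overlapped with IgG T0, as for 26% of the genes tested. Plaur was at 0, 8.57 and 3.88 CPM in IgG T0 and at 34, 54.3 and 36.2 CPM in IgG T3, from only 3, 5 and 9 UMIs (3.10, SE 0.69, edgeR adjusted p 0.0157). The Plaur call was lost without IgG T3 animal 1, 3 or 4, with adjusted p-values of 0.052, 0.136 and 0.128, and without any 1 of the IgG T0 libraries Plaur was below the count filter and was not tested. Plat did not pass (0.71, SE 0.42, 95% interval -0.20 to 1.62, adjusted p 0.361), with 144, 103 and 83.0 CPM in IgG T0 and 227, 283 and 76.5 CPM in IgG T3.

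Timp1, Adamts4 and Mmp9 were below the count filter in this comparison. Timp1 had 2, 1 and 16 UMIs in IgG T0 and 1, 4 and 16 in IgG T3, at 5.15, 1.71 and 12.4 CPM against 11.3, 43.5 and 64.4 CPM. The groups overlapped in CPM. Adamts4 had 0 UMIs in every IgG T0 library and 3, 1 and 4 in IgG T3. In IgG T3 animals 1 and 3 it was at 34 and 10.9 CPM, at or under the floor that 3 UMIs give there (34 and 32.6 CPM). No fold is therefore read from these counts. Mmp9 had 2, 9 and 8 UMIs in IgG T0 and 0, 1 and 1 in IgG T3. Without the filter Timp1 (log2 fold change 2.43, edgeR adjusted p 0.0126) and Adamts4 (6.02, adjusted p 0.0017) were called higher and Mmp9 was not called (-0.97, adjusted p 0.745), although the value of Adamts4 rests on libraries at 0 and is no estimate of size. The glial marker sum was also higher in IgG T3 animals 1 and 3, and its part in the IgG changes was not tested. In animal 4 that sum was 221 CPM, from 55 UMIs, and within the range of 178 to 242 CPM in IgG T0. There Adamts1 was at 189 CPM, Plaur at 36.2 CPM, Timp1 at 64.4 CPM and Adamts4 at 16.1 CPM, each above every IgG T0 value. These values come from 1 library with 47, 9, 16 and 4 UMIs, and the part of glial RNA in them was not tested.

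**Figure D2:**
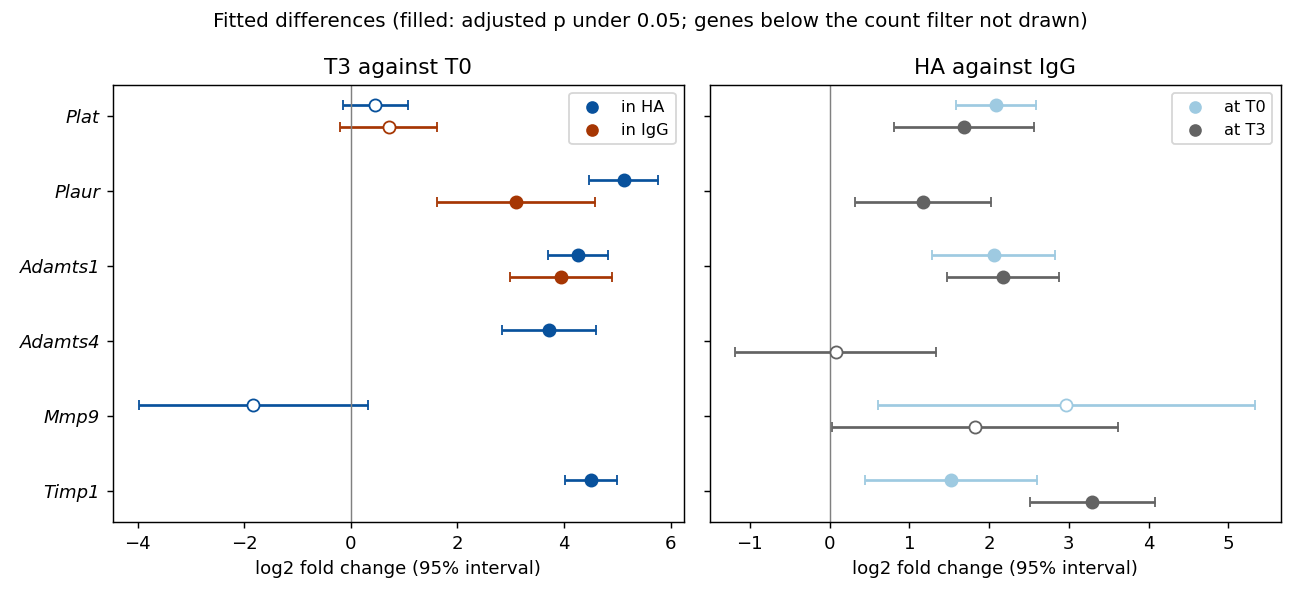
Log2 fold changes with 95% intervals (horizontal axis) of the 6 genes for T3 against T0 in each pull-down (left) and for HA against IgG at each time (right); filled points passed the threshold and genes below the count filter are not drawn. The intervals of Adamts1 lie side by side in HA and IgG (4.27 and 3.94), and Plat is above 0 for HA against IgG at both times.

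Next, HA was compared with IgG to ask which of these transcripts the pull-down enriched. At T0 Plat, Adamts1 and Timp1 were higher in HA, 3 of 4 genes tested, where 30.3% of 9823 genes were called and 16% were called higher. Timp1 and Mmp9 passed the count filter through their HA libraries, where they were higher, so nothing is read from this share. Without the filter Timp1 was called as well (edgeR adjusted p 0.0221). Plat was 4.24-fold higher (log2 fold change 2.09, SE 0.24, edgeR adjusted p 2.11e-05), and within animals 1, 2 and 4 the CPM ratio of HA to IgG was 3.05, 3.8 and 6.87. Adamts1 was 4.16-fold higher (2.06, SE 0.36, edgeR adjusted p 0.000776), with ratios of 4.14, 3.44 and 4.24. For both genes each HA library lay above each IgG library, as for 44.8% of genes tested in either direction.

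Timp1 was 2.88-fold higher in HA at T0 (log2 fold change 1.52, SE 0.50, edgeR adjusted p 0.0329). This call was lost without HA animal 1 or 4 (adjusted p 0.131 and 0.0542) and without IgG animal 1 or 2 (0.0594 and 0.0941). Mmp9 was higher in HA in each animal without overlap, as for 44.8% of genes tested in either direction, with IgG T0 values of 5.15, 15.4 and 6.2 CPM. It did not pass (2.97, SE 0.95, 95% interval 0.61 to 5.33, edgeR adjusted p 0.0664). The HA and IgG libraries of an animal come from 1 homogenate, and with the animal as a block the Mmp9 change was 2.54 with an adjusted p of 1.02e-05. DESeq2 (2.96, adjusted p 6.34e-05) and the fit of all 12 libraries (2.98, adjusted p 0.00377) called it as well. Without HA animal 4 it was 3.45 with an adjusted p of 3.56e-05. Plaur, at 3.00 ± 0.825 CPM in HA and 4.15 ± 4.29 in IgG, and Adamts4, at 1.72 ± 0.450 and 0, were below the count filter. Their counts of at most 8 and 4 UMIs per library left an enrichment in naïve tissue undetectable at this depth.

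At T3 Plat, Plaur, Timp1 and Adamts1 were higher in HA, 4 of 6 genes tested, where 21.9% of 7200 genes were called and 11.8% were called higher. Timp1 and Mmp9 passed the count filter through their HA libraries, where they were higher, so nothing is read from this share. Without the filter Timp1 was called as well (edgeR adjusted p 9.32e-18). The HA and IgG values of the 4 called genes did not overlap, as for 35.8% of genes tested in either direction. Timp1 levels were 435 ± 48.2 CPM for HA and 39.7 ± 26.7 CPM for IgG, 9.81-fold apart (log2 fold change 3.29, SE 0.37, edgeR adjusted p 1.17e-05). Adamts1 was at 1057 ± 249 against 257 ± 131 CPM (2.17, SE 0.34, edgeR adjusted p 0.000183). Within animals 1, 3 and 4 the ratios of HA to IgG for Adamts1 were 3.06, 6.58 and 4.11, a range that holds all 3 naïve ratios.

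Plat was 3.21-fold higher in HA at T3 (log2 fold change 1.68, SE 0.41, edgeR adjusted p 0.00768), with ratios of 1.48, 2.82 and 6.07, and lost its call without HA animal 3 (1.19, adjusted p 0.0649). Plaur was 2.25-fold higher (1.17, SE 0.41, edgeR adjusted p 0.0452), close to the threshold. Its call was lost without HA animal 1, 3 or 4 (adjusted p 0.0568, 0.0755 and 0.182) and without IgG animal 1 or 4 (0.0643 and 0.154), and in 8 of 13 alternatives in all, with adjusted p-values from 0.00998 to 0.182 over them. Adamts4 levels were 18.8 ± 5.14 CPM for HA and 20.3 ± 12.2 CPM for IgG, which rested on 8 UMIs over the IgG libraries (0.08, SE 0.60, 95% interval -1.18 to 1.34, adjusted p 0.949). The interval spans more than 2-fold in either direction. Mmp9 was at 16.1 ± 1.71 CPM in HA T3 with at most 1 UMI in an IgG T3 library, and did not pass (1.83, SE 0.86, adjusted p 0.139). The Mmp9 values in IgG T3 lie under the floor that 3 UMIs give in these libraries (12.1 to 34 CPM), so that no enrichment can be read from them.

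An interaction term of antibody and time asked if the response over 3 h was unequal in the pull-downs. Of the 6 genes 0 passed in edgeR and 0 in DESeq2, where edgeR called 0.33% of 10314 genes and called 0.301% higher, and 3 of them had an unadjusted p under 0.05, as 1081 genes did in all. These were Plaur (difference of log2 fold changes 2.03, SE 0.77, adjusted p 0.337), Timp1 (2.05, SE 0.66, adjusted p 0.241) and Adamts4 (-3.65, SE 1.67, adjusted p 0.453). With the animal as a block Timp1 passed, at 2.19 with an adjusted p of 0.0366 (0.0366 to 0.906 over the alternatives). The differences of Plaur and Timp1 were larger in HA, while that of Adamts4 rests on IgG T0 libraries at 0. For Adamts1 the difference was 0.39 (SE 0.51, 95% interval -0.66 to 1.43, adjusted p 0.842) and for Plat -0.12 (SE 0.53, 95% interval -1.24 to 0.99, adjusted p 0.96). Mmp9 (-0.88, SE 2.00, adjusted p 0.924) could not be resolved. Over all genes the median difference was 0.18, and -0.18 with total counts as scaling.

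Set beside each other, the 6 genes differed in rank between naïve and injured mice. In HA T0 Plat made up 74.0 ± 11% of their UMIs, Mmp9 11.2 ± 7.57%, Adamts1 10.4 ± 3.11%, Timp1 3.56 ± 0.982%, Plaur 0.486 ± 0.174% and Adamts4 0.279 ± 0.0968%. Mmp9, Adamts1 and Timp1 were not separated in every animal, since Mmp9 ranged from 2.54% to 16.6%. In HA T3 Adamts1 made up 49.1 ± 8.78%, Plat 24.4 ± 8.39%, Timp1 20.8 ± 5.07%, Plaur 4.12 ± 1.58%, Adamts4 0.864 ± 0.134% and Mmp9 0.754 ± 0.0344%, where Plat and Timp1 overlapped. The summed level was 628 ± 47.7 CPM in HA T0 and 2145 ± 292 CPM in HA T3. In IgG T0 Plat led at 74.5 ± 6.86%. In IgG T3 Adamts1 was at 45.4 ± 13.8% and Plat at 33.5 ± 14.7%, but in animal 3 Plat led (49.1% against 30.2%). The IgG sums were 146 ± 29.4 CPM in T0 and 559 ± 165 CPM in T3, where the shares rest on 53 to 96 UMIs per library. These shares are a description, with no test.

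**Figure D3:**
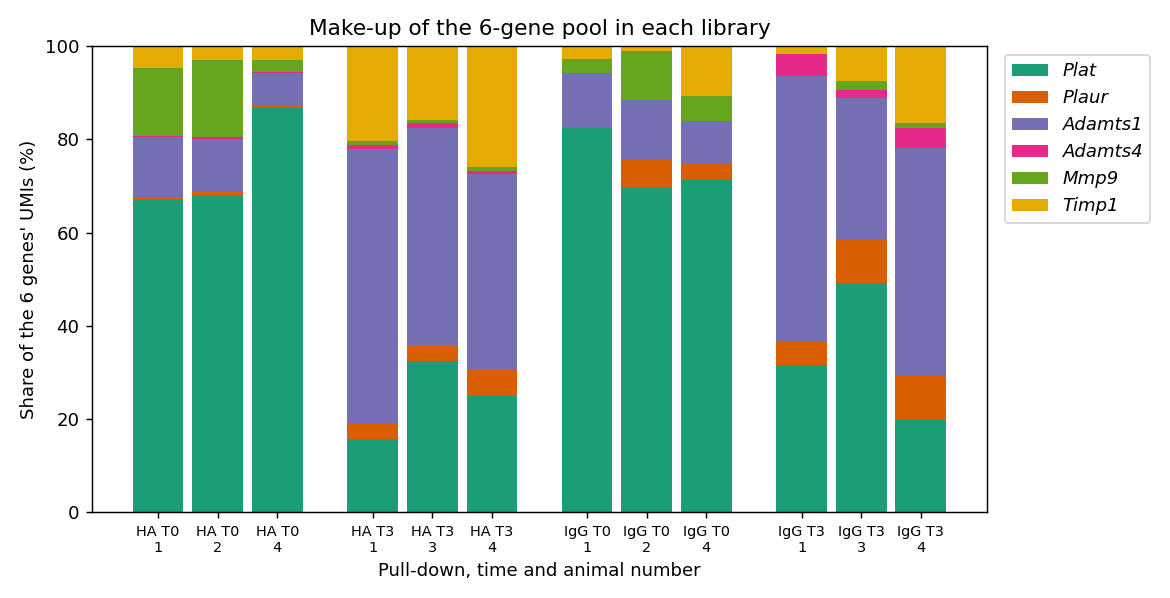
Share of each gene among the UMIs of the 6 genes (vertical axis, percent) in each of 12 libraries, labelled with pull-down, time and animal number. Plat fills 67.2% to 86.8% of the HA T0 bars, and Adamts1 fills 41.7% to 58.8% of the HA T3 bars with Timp1 next or after Plat.

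Genes whose levels followed those of the 6 most closely over the 12 libraries were ranked by Pearson's r on log2(TMM-scaled CPM + 1) among 10169 genes, as a description in which points share libraries, animals and depth. Plat was most like Plekhb1 (0.97), Fbln2 (0.963) and Sema3b (0.959), whose values were higher in every HA library than in every IgG library of the same time. Adamts1 was most like Cxcl10 (0.99), Cyr61 (0.989) and Vasn (0.979). Adamts4 was most like Ccl2 (0.972), Gadd45b (0.961) and Egr1 (0.961). Plaur was most like Smim3 (0.979), Odc1 (0.976) and Pim3 (0.971). Timp1 was most like Rnh1 (0.964), Egr2 (0.958) and Nes (0.958). Nes, which encodes the intermediate filament nestin, had the HA profile of Timp1, at 43.0, 48.1 and 27.9 CPM in HA T0 and at 619, 578 and 700 CPM in HA T3. Mmp9 was most like Nomo1 (0.954), Abca3 (0.953) and P3h4 (0.937), of which P3h4 was at 189, 205 and 154 CPM in HA T0 and at 95.8, 114 and 86.4 CPM in HA T3. Among the 6 genes, r was 0.94 for Adamts1 and Adamts4, 0.87 for Timp1 and Adamts1 and -0.16 for Plaur and Mmp9.

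The other genes of the system were then followed by lists. Each count of calls over time in HA stands beside 33.8% called and 18.7% called higher over all genes, and each count in HA against IgG at T0 beside 30.3% and 16%. With lists this short the counts are descriptions, and nothing is read from a share near these. Among plasminogen, its surface receptors and its clearance genes 2 of 7 tested rose in HA (18.7% of all genes) and none was called lower, and both form 1 complex that binds plasminogen and tissue plasminogen activator at the cell surface. Anxa2, which encodes annexin A2, was at 278, 284 and 284 CPM in HA T0 and at 819, 768 and 846 CPM in HA T3 (log2 fold change 1.79, SE 0.16, edgeR adjusted p 4.37e-08). S100a10, its partner subunit, was at 260, 245 and 239 CPM and at 476, 706 and 772 CPM (1.66, SE 0.19, edgeR adjusted p 1.42e-06). Naïve and injured animals did not overlap for either gene, as for 50.8% of all genes tested in either direction.

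In IgG neither gene was called. Anxa2 was at 203, 192 and 328 CPM in IgG T0 and at 238, 652 and 237 CPM in IgG T3 (0.55, SE 0.39, adjusted p 0.448), and S100a10 was at 428, 249 and 325 CPM and at 216, 326 and 233 CPM (-0.41, SE 0.31, adjusted p 0.501). The interaction was called for S100a10 (2.15, SE 0.37, edgeR adjusted p 0.00629), which was lost without HA T3 animal 4 (1.94, adjusted p 0.0579), and not for Anxa2 (1.34, SE 0.41, adjusted p 0.197), although a block for the animal gave 1.38 (adjusted p 0.0212) and leaving out IgG T3 animal 3 gave 1.86 (adjusted p 0.0343). At T0 HA did not differ from IgG past the threshold (Anxa2 0.18, adjusted p 0.559, and S100a10 -0.45, adjusted p 0.13, or -0.61 and 0.0468 without IgG T0 animal 2). At T3 both were higher in HA, S100a10 by 1.44 (SE 0.29, edgeR adjusted p 0.00151) and Anxa2 by 1.26 (SE 0.33, adjusted p 0.00917, and 0.0586 without HA T3 animal 4). Igf2r, a receptor that binds Plaur, was higher in HA at T0 (0.99, adjusted p 0.0329), a call lost without HA animal 1 or 2 (0.0566 and 0.143) or IgG animal 1 or 4 (0.0658 and 0.109).

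**Figure D4:**
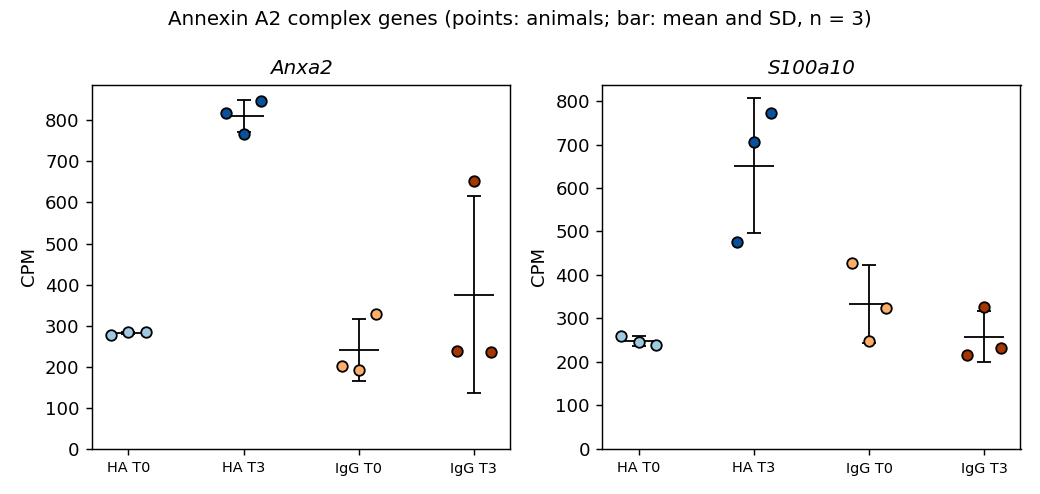
CPM (vertical axis, from 0) of Anxa2 and S100a10 in the 4 groups; points are animals in the order of their numbers and bars give the mean and SD of 3. In HA both genes are higher in all T3 animals (Anxa2 768 to 846 CPM, S100a10 476 to 772 CPM) than in all T0 animals, while the IgG groups overlap.

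Among serpins and other serine protease inhibitors 1 of 9 rose in HA (18.7% of all genes) and none was called lower. Serpina3n, an inhibitor of granzyme and other serine proteases that is high in reactive glia, went from 69.5, 70.4 and 68.6 CPM to 187, 399 and 200 CPM (log2 fold change 2.18, SE 0.27, edgeR adjusted p 2.22e-05). In IgG it was below the count filter, at 10.3, 6.86 and 21.7 CPM in T0 and 11.3, 120 and 96.6 CPM in T3. Its interaction was -0.18 (SE 0.64, edgeR adjusted p 0.954), so a larger rise in HA was not seen. In naïve tissue 5 of 10 inhibitors were called higher in HA (Serpine2, Serpinf1, Serpina3n, Serping1 and Serpinh1) and 1 lower (Serpini1, the neuronal neuroserpin), the last 3 of these 6 named after their values were seen. Serpine2, also named protease nexin-1, a glial inhibitor of thrombin and plasminogen activators, was at 738 ± 8.73 CPM in HA T0 against 83.7 ± 29.0 in IgG T0 (3.16, SE 0.25, edgeR adjusted p 6.6e-07), above the level of Plat in all naïve HA libraries. Serpinf1 was at 185 ± 11.6 against 27.2 ± 11.1 CPM (2.85, SE 0.30, edgeR adjusted p 8.3e-06).

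Of the other metalloprotease inhibitors Timp2 and Timp3 were each above 700 CPM in every HA library, against which naïve Timp1 was a small pool, and HA exceeded IgG at T0 for both (1.49 and 1.81, adjusted p 4.96e-05 and 3.27e-05). In HA T3 against T0 all 3 tested of this list were called, Timp3 and Timp2 higher by 0.62 and 0.51 with overlapping groups (adjusted p 0.00914 and 0.0249), and Reck, a membrane-anchored inhibitor, lower. Timp3 lost its call without HA T0 animal 1 (adjusted p 0.0596) and Timp2 without naïve HA animal 1 or injured HA animal 1 or 4 (0.0711, 0.126 and 0.0789), and both lost it with total counts as scaling, where the median of all genes was -0.29 (0.112 and 0.239). Reck went from 156, 156 and 146 CPM to 59.7, 86.3 and 42.0 CPM (-1.01, SE 0.22, edgeR adjusted p 0.0013), with no overlap, as for 50.8% of all genes tested.

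Among matrix metalloproteases other than Mmp9, 2 of 7 rose in HA (18.7% of all genes) and 1 fell. Mmp19, which cuts basement membrane proteins, went from 12.7, 11.7 and 5.57 CPM to 82.7, 108 and 136 CPM (3.73, SE 0.30, edgeR adjusted p 2.91e-08), a fold of 13.3 that is near that of Adamts4. It was also called higher in HA than in IgG at T3 (2.62, SE 0.47, edgeR adjusted p 0.000635). The IgG T3 libraries held only 1, 2 and 5 UMIs of it (11.3, 21.7 and 20.1 CPM). In animals 1 and 3 these lay under the floor that 3 UMIs give there (34 and 32.6 CPM), so the value is no estimate of size. Mmp14, the membrane-type protease that activates Mmp2, rose by 0.99 (SE 0.17, adjusted p 0.000172), and Mmp11 had a log2 fold change of -1.47 (SE 0.32, adjusted p 0.00127) and so fell. In IgG the change of Mmp14 was 0.96 without overlap, as for 26% of genes tested, but was not called (SE 0.32, edgeR adjusted p 0.104). Its interaction was 0.13 (adjusted p 0.93). In naïve tissue 4 of 8 were called higher in HA (Mmp15, Mmp2, Mmp14 and Mmp17) and 1 lower (Mmp24), Mmp17 and Mmp24 being named after their values were seen, with Mmp15 at 265 ± 30.4 CPM (2.97, SE 0.24, edgeR adjusted p 7.89e-07) and Mmp2 at 151 ± 16.0 CPM (1.70, SE 0.24, adjusted p 0.000151).

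Of the 10 other ADAMTS genes that could be tested in HA against IgG at T0, 4 were called lower and none higher in HA. These were Adamts8 and Adamts10, named after their values were seen, Adamts9 at 1.60 ± 0.621 CPM in HA T0 and 7.73, 10.3 and 15.5 CPM in IgG T0 (-2.85, SE 0.54, edgeR adjusted p 0.00128) and Adamtsl1 (-1.34, adjusted p 0.00945, and 0.0536 without IgG T0 animal 4). With time 2 of 9 rose in HA (18.7% of all genes) and none was called lower. Adamts9 rose in HA (2.58, SE 0.48, edgeR adjusted p 0.000359) but remained at 8.18, 9.36 and 7.79 CPM against 68.1, 32.6 and 64.4 CPM in IgG T3 (-2.66, SE 0.47, edgeR adjusted p 0.000559). Adamts9 was also called higher over time in IgG (2.19, adjusted p 0.0214), a call lost without IgG T0 animal 1, 2 or 4 (0.0883, 0.14 and 0.0782) or IgG T3 animal 1 or 4 (0.0674 and 0.207). In HA against IgG Adamts9 passed the count filter only through its IgG libraries, and over time only through the T3 libraries, the groups where it was high. It rested on 6, 2 and 4 UMIs in HA T0 and on 3, 6 and 20 in IgG T0, so nothing more is read from these calls. Its CPM was lower in every HA library than in every IgG library of the same time, the opposite of Adamts1. Such a lack of overlap in either direction held for 44.8% of genes tested at T0 and 35.8% at T3. Adamts14, at 3.84, 6.15 and 8.71 CPM in naïve HA libraries and at 0, 1.71 and 3.1 CPM in naïve IgG libraries, was below the count filter there. Over time in HA it (1.11, adjusted p 0.0296) kept its call in only 4 of 13 alternatives and lost it without any 1 library except HA T0 animal 4, with adjusted p-values up to 0.122. Among ADAM proteases 1 of 8 was called higher (18.7% of all genes) and none lower in HA. This was Adam23 (0.73, adjusted p 0.0214), with overlapping groups, whose call was lost without naïve HA animal 2 or 4 or injured HA animal 1 (0.079, 0.075 and 0.0781). Adam17, the sheddase of tumour necrosis factor, was higher in HA at T0 (1.64, SE 0.27, adjusted p 0.000541).

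The coagulation list held 1 gene called higher (18.7% of all genes) and 2 called lower of 4 tested in HA. F2r, the thrombin receptor PAR1, which plasmin can also cut, was enriched in HA at T0 (2.35, SE 0.23, edgeR adjusted p 5.72e-06) and went from 218, 206 and 243 CPM to 92.5, 93.6 and 61.5 CPM in HA T3 (-1.16, SE 0.19, edgeR adjusted p 9.81e-05). At T3 its enrichment in HA was not called (0.62, SE 0.41, edgeR adjusted p 0.302). Thbd, which encodes thrombomodulin, rose by 0.82 in HA (SE 0.19, adjusted p 0.00256). In IgG it was called higher too (1.31, adjusted p 0.0392), a call lost without any 1 of the 6 IgG libraries (adjusted p 0.0521 to 0.183), and HA against IgG at T3 gave 0.21 (adjusted p 0.664). Tfpi, an inhibitor of the tissue factor pathway, was called lower (-0.80, adjusted p 0.0235), a call lost without naïve HA animal 1 or injured HA animal 1 or 4 (0.0991, 0.0796 and 0.139).

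Among matrix substrates of these enzymes 7 of 11 tested were called over time in HA (33.8% of all genes), 4 called higher (Thbs1, Hspg2, Bcan and Ncan) and 3 lower (Dcn, Fn1 and Nid1). Ncan and Nid1 were outside the naming rule and are named after their values were seen. Bcan, which encodes brevican, a proteoglycan cut by Adamts4, was enriched in HA at T0, with 130, 150 and 126 CPM against 7.73, 6.86 and 10.9 CPM in IgG (3.87, SE 0.29, edgeR adjusted p 4.34e-07), and rose by 0.65 at T3 (SE 0.18, adjusted p 0.01, and 0.0997 with total counts as scaling). Thbs1, a matrix protein that binds and is cut by Adamts1, rose by 1.78 in HA (SE 0.32, edgeR adjusted p 0.00177) and by 2.55 in IgG (SE 0.44, adjusted p 0.00263), and HA against IgG at T3 gave -0.68 (adjusted p 0.245). Hspg2, which encodes perlecan, rose by 0.91 in HA (SE 0.22, adjusted p 0.00295). Dcn (decorin) fell, with a log2 fold change of -1.79 (SE 0.23, adjusted p 7.9e-06) in HA and -1.82 (SE 0.31, adjusted p 0.00217) in IgG. Fn1 (fibronectin) fell in HA, with -0.97 (SE 0.22, adjusted p 0.002). Both were lower in HA at T0, and Dcn is also in the list of fibroblast markers, whose sum was 1206 ± 171 CPM in HA T0 and 407 ± 123 CPM in HA T3, and its part in these changes was not tested.

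**Figure D5:**
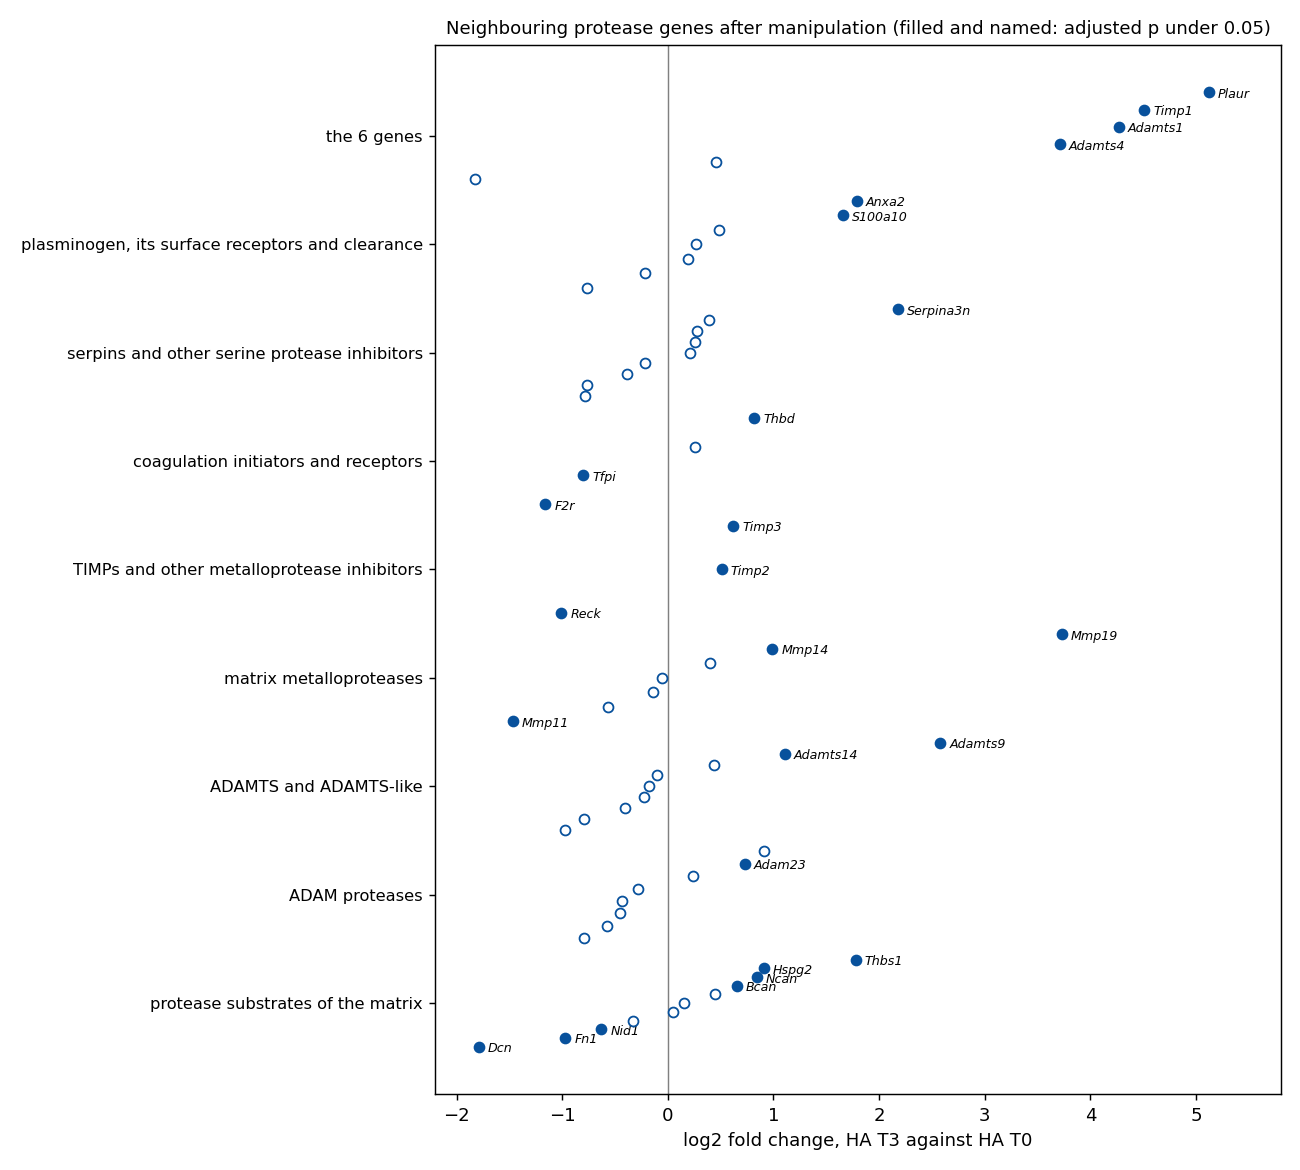
Log2 fold change in HA T3 against HA T0 (horizontal axis) of every tested gene of the 6 and of 8 lists of the system (rows); filled, named points passed the threshold. Plaur, Timp1, Adamts1, Adamts4 and Mmp19 lie above 3.5, and most points of the other lists lie between -1 and 1.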

How the data were processed

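Per the labels and the study's methods, 3′ libraries of pull-down RNA were made by bulk MARS-seq in pools of at most 8 samples. The authors trimmed reads (cutadapt), mapped them to mm10 (STAR 2.4.2a, per the submitters' processing notes) and counted UMIs from 1000 bases upstream to 100 bases downstream of annotated 3′ ends (HTSeq). The deposited values are raw UMI counts per gene, not normalized, and 0 values differed between the series table and the sample tables. Genes should have at least 5 reads in 1 sample or more, yet 189 of 12975 genes had no count of 5. Reads with several mapping sites were dropped, which lowers genes with near copies.

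Counts were tested with edgeR 4.0.16 (R 4.3.3) by the quasi-likelihood F-test (robust, TMM scaling, filterByExpr, Benjamini-Hochberg adjustment over all genes, threshold 0.05), 2 groups at a time or, for the interaction, over 12 libraries. Standard errors and 95% intervals come from the F statistic. The fits were tested on simulated data with 200 changed genes. Alternatives were RLE scaling, total counts as scaling, no filter, at least 5 counts in 1 library, DESeq2 1.42.0, a fit of all 12 libraries, a block for the replicate number (in HA against IgG and in the interaction 1 level per animal, with T0 and T3 animals of the same number kept apart) and leaving out each library. The HA and IgG library of an animal come from 1 homogenate, a pairing taken from the labels. Their deviations from the group means correlated at 0.11 to 0.28 over 8439 genes. Same-numbered T0 and T3 libraries, which are from different mice, correlated at -0.02 to 0.16. Libraries with unlike numbers were not compared, so these values do not show the pairing. A count of 0 allows up to 3 counts. The libraries of a group come from separate animals. Gene coordinates are from GENCODE on GRCm38.

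All 6 measured genes were named, and from each list at most 4 genes with the smallest p in HA T3 against T0 past the threshold without overlap in CPM and at most 2 with the smallest p in HA against IgG at T0. A few others are named where stated. The genes and lists were chosen with earlier results of these data known. Some genes of the system are not reported here.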

Additional observations from a re-analysis of the deposited data

Results flagged for a closer look

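S100a10, which encodes a subunit of the annexin A2 plasminogen receptor, changed with time by 2.15 more on the log2 scale in HA than in IgG (SE 0.37, edgeR adjusted p 0.00629, interaction over 12 libraries). In HA its values in injured mice lay above those in naïve mice without overlap, while the IgG groups overlapped. A lack of overlap in HA, in either direction, held for 50.8% of all genes tested. Its partner Anxa2 differed by 1.34 (SE 0.41, adjusted p 0.197, and 0.0212 with the animal as a block).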

How the results depend on the processing

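The calls of Plaur, Timp1, Adamts1 and Adamts4 in HA T3 against T0 held in all 13 alternatives each. Called members in IgG T3 against T0 numbered 2, but 4 without a filter, also 4 when 12 libraries were fitted, 1 with the replicate block, and 1 to 2 over the fits that left out 1 library. For HA against IgG at T3 the 4 called members became 2 to 4 over such fits. For the interaction the block gave 1 called member, and over fits without 1 library there were 0. Over all genes, IgG T3 against T0 had 285 calls, 519 without a filter, 705 with all 12 libraries and 162 to 334 without 1 library. HA against IgG at T3 had 1578 calls and 849 to 1977 without 1 library. The interaction had 34 calls, 20 with RLE scaling, 8 with total counts, 83 with DESeq2, 158 with the replicate block and 5 to 95 without 1 library. The cause of these moves was not tested.

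Direction turned for Plat in HA T3 against T0 with the replicate block (-0.07), for Anxa2 in IgG T3 against T0 with that block (-0.19) and without IgG T3 animal 3 (-0.04, range -0.04 to 0.85 without 1 library), for Adamts4 in HA against IgG at T3 with total counts (-0.02), the block (-0.05) and without IgG T3 animal 3 (-0.02, range -0.02 to 0.51), and for Plat in the interaction without IgG T0 animal 4 (0.02), HA T3 animal 1 (0.10), IgG T3 animal 1 (0.03) or IgG T3 animal 3 (0.22, range -0.65 to 0.22). None of these was called. With total counts as scaling, 31.1% of the calls in HA T3 against T0 were higher, beside 55.4% with TMM.

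T0 and T3 animals share only the numbers 1 and 4. Same-numbered libraries correlated at 0.15 and -0.02 in HA and 0.16 and 0.01 in IgG, and with that block Plaur in IgG was no longer called (3.57, adjusted p 0.0737). Depth limits the IgG T3 values most, where Plaur, Timp1, Adamts4 and Mmp9 had at most 16 UMIs in a library.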
